A study of Mus musculus with 7 samples.

Results

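The 10 genes described here carry and control the movement of water in the kidney: 7 aquaporins (Aqp1, Aqp2, Aqp3, Aqp4, Aqp6, Aqp7 and Aqp11), the vasopressin receptors Avpr2 and Avpr1a, and the urea transporter Slc14a2. They were chosen by gene symbol, and all 10 were found among the 24328 symbols measured. Their RNA was compared between kidneys of 3 LBR-null mice (homozygous Lbr ic-J/ic-J, carrying a loss-of-function allele of the lamin B receptor gene, whose product is a protein that holds heterochromatin at the nuclear envelope) and 1 WT littermate (Lbr +/+). All 4 mice were C57BL/6J, 4 weeks old, untreated and kept on standard chow, and the mutation is carried by every cell of the body. Pulverized right kidney was used, so the values are those of whole kidney, and the labels give no sex. Mice 4001 and 4007 (LBR-null) and mouse 4009 (WT) gave 2 libraries each, and LBR-null mouse 4002 gave 1. The sources used here do not say whether both libraries of a mouse came from separate aliquots, so both were averaged and the animal, not the library, was counted as n. With 1 WT mouse, the spread between WT mice is unknown, and genotype and the individual WT animal cannot be told apart.

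Aquaporins are membrane channels that let water, and in some members glycerol, pass along an osmotic gradient. Vasopressin, released from the pituitary when the body is short of water, binds the V2 receptor on principal cells of the collecting duct, raises cAMP, moves AQP2 to the apical membrane and raises Aqp2 transcription. Water taken up through AQP2 leaves the cell through AQP3 and AQP4 on the basolateral side. The urea transporter made from Slc14a2 lets urea enter the inner medulla, where it helps to concentrate the urine, and AQP1 carries the bulk reabsorption of water in the proximal tubule and thin descending limb.

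Start-site sequences bear on these genes because cAMP acts on Aqp2 through the cAMP response element, and because the study set genes with and without CpG islands apart. RefSeq start-site windows (build GRCm38.p6, 250 bases before to 50 after the start) were matched for 8 of the 10 genes, in 9 windows, Aqp7 having a pair of starts. Sequences of 3 genes are shown, in the 250 bases before the start: Aqp1 and Avpr1a, which were above WT in every LBR-null library, and Aqp2, the vasopressin target. They lie on the forward strand at chr6:55336049-55336298 (Aqp1), chr10:122448249-122448498 (Avpr1a) and chr15:99578806-99579055 (Aqp2). Capitals mark the core of the cAMP response element (TGACG, or CGTCA on the opposite strand). They also mark exact matches to the letters TATAAA of the TATA box (TTTATA on the opposite strand), at any distance from the start.
Aqp1: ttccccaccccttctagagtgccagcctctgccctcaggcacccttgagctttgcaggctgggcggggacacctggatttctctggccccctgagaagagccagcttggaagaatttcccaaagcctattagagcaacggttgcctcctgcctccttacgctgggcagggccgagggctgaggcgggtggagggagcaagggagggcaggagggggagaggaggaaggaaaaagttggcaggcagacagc
Avpr1a: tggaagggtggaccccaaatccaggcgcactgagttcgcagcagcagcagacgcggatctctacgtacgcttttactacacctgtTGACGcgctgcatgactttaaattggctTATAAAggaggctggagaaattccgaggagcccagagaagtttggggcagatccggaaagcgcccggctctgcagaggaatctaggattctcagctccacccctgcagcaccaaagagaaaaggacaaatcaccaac
Aqp2: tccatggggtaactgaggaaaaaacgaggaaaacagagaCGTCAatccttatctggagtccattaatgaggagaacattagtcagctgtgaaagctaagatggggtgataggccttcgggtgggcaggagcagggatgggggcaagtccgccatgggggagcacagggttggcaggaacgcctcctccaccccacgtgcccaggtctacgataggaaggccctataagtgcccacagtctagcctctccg
The cAMP response element core occurred in Aqp2, 211 bases before the start on the opposite strand, and in Avpr1a, 165 bases before it on the gene's strand. These were 2 of the 8 matched genes, and 20.8% of all 32851 RefSeq windows held the core. The full element TGACGTCA, which contains the core, occurred in none of the 8 and in 1.79% of all windows. TATAAA occurred in Aqp3 and Avpr1a, 29 and 137 bases before the start on the gene's strand. In Avpr2 it lay 45 bases before the start on the opposite strand. Of all windows, 13.6% held it. AGATAA, a letter string that GATA factors bind, occurred in Aqp2 and Aqp7 (11.2% of all windows), and GGAAA, the core bound by NFAT factors, in 6 of the 8 genes (61.3% of all windows). The windows of Aqp3 and Aqp11 had at least 50% GC and a CpG observed over expected ratio above 0.6, as did 33.4% of all windows, and those of the other 6 genes did not. The ratio was 0.28 for Aqp1, 0.36 for Aqp2 and 0.05 for Avpr2, and it was close to the limit for Avpr1a (0.60, with 54% GC). The study classed genes otherwise, by annotated islands together with regions bound by the CxxC domain. These windows therefore do not give its classes. A match to such letters is a description of the sequence and not a site of binding.

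The libraries held 20694016 to 26333284 reads on genes. None of the 10 genes passed the test between LBR-null and WT kidneys, whether by limma, edgeR or DESeq2 (adjusted p of at most 0.05 and a change of at least 2-fold). By limma no gene at all passed (0% of 17283 genes tested, in either direction), so the limma count says nothing particular about these 10. DESeq2 called 3.08% of all genes higher and 3.33% lower, and edgeR called 0.00579% higher and 0.156% lower. An unadjusted p under 0.05 was reached by 0 of the 10 with each of these tools. Of all genes, 10.7% did so upward and 8.05% downward by limma, 10.3% and 8.88% by edgeR, and 10.6% and 8.42% by DESeq2. By means alone, 0 of the 10 differed 2-fold, against 14.5% of all genes higher and 7.04% lower. Every LBR-null library lay above both WT libraries for 2 of the 10, Aqp1 and Avpr1a, beside 25.5% of all genes, and below them for 0 of the 10, beside 25.7% of all genes. Neither count exceeds the share of all genes.

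**Figure D1:**
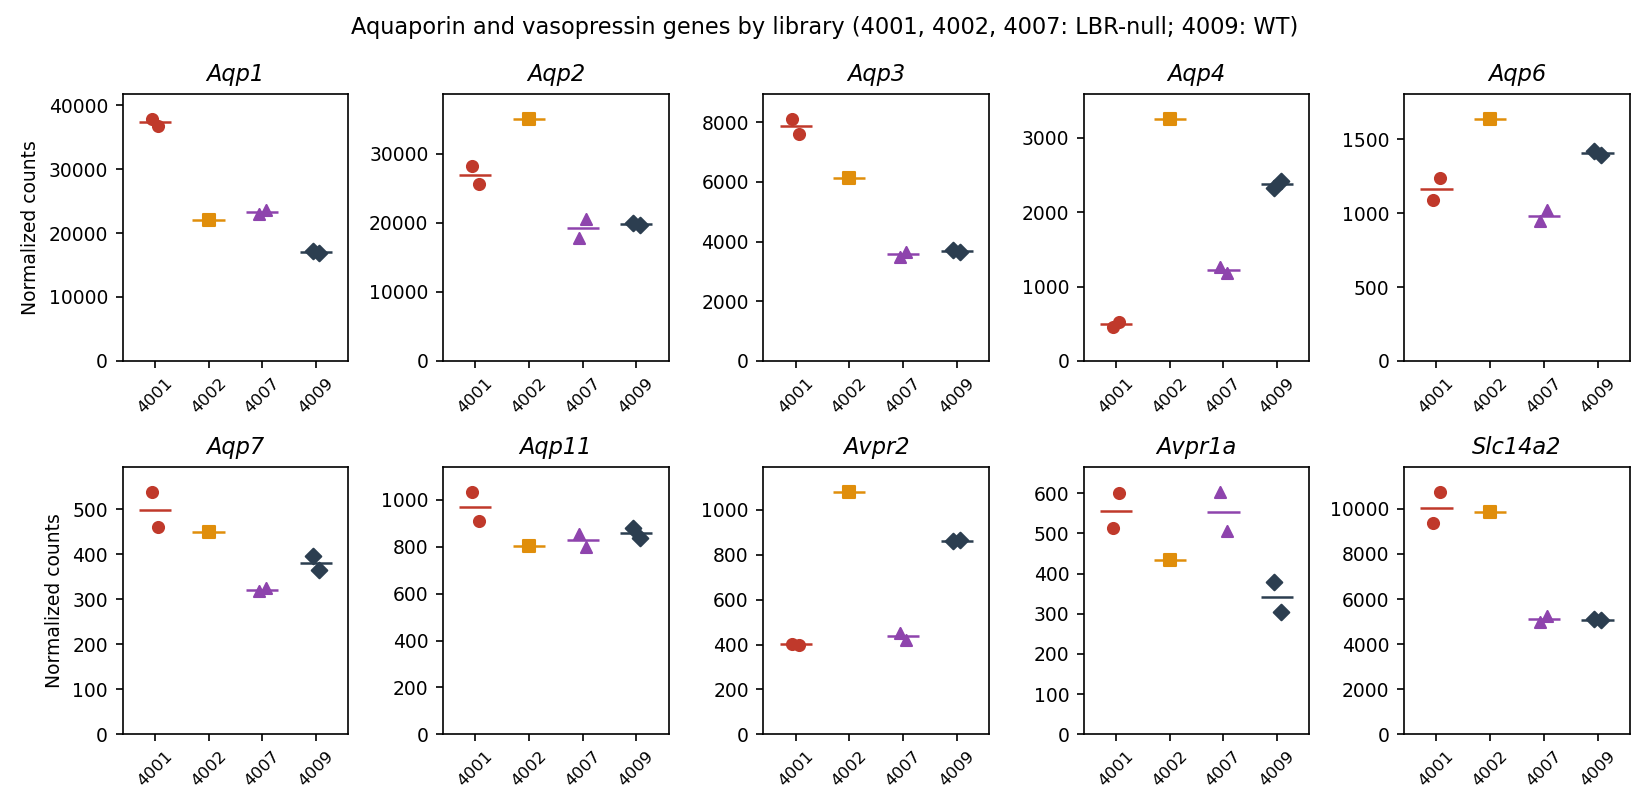
Normalized counts (linear axes from 0) of the 10 genes in each of the 7 libraries, by mouse; points are libraries and lines the mean of a mouse. Aqp1 and Avpr1a lay above the WT libraries in all 5 LBR-null libraries, whereas Aqp4 and Avpr2 were low in mice 4001 and 4007 and above WT in mouse 4002.

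The 10 genes differed in abundance. Per kilobase of exon, and so comparable between genes, Aqp2 stood first with 13968 normalized counts in the WT mouse and 19080 ± 5597 (SD, n = 3) in the LBR-null mice. Aqp1 came next, with 6482 in the WT mouse and 10479 ± 3235 in the LBR-null mice, followed by Aqp3 with 2010 and 3200 ± 1181, and by Slc14a2 with 1084 and 1778 ± 597. This order of the first 4 genes was the same in each of the 4 mice. The other 6 lay between 128 (Avpr1a) and 684 (Aqp6) in the WT mouse, and their order varied between mice. Aqp4 ranked 7 in the WT mouse and 10, 6 and 7 in mice 4001, 4002 and 4007. Among these 6, neighbours in the LBR-null order (Aqp11 656 ± 68.7, Aqp6 613 ± 164, Aqp4 311 ± 270, Avpr2 221 ± 132, Avpr1a 193 ± 26.4 and Aqp7 150 ± 32.3) lay closer together than the larger of their SDs, except Aqp6 and Aqp4, and Avpr1a and Aqp7.

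Aqp1 is the constitutive water channel of the proximal tubule and the thin descending limb, and of the endothelium of the descending vasa recta. It lies on chromosome 6 (mm9, 55286426 to 55298549, forward strand). It gave 37850 and 36781 normalized counts in the libraries of mouse 4001, 22028 in that of 4002, 22920 and 23558 in those of 4007, and 17126 and 16932 in those of the WT mouse. All 5 LBR-null libraries were above both WT libraries, mouse 4001 most. The ratio to WT was 2.19, 1.29 and 1.36 in mice 4001, 4002 and 4007. The log2 fold change was 0.65 ± 0.46 (SE, 3 mice against 1; adjusted p = 0.493, limma), with a 95% interval from -0.45 to 1.75. The 7 markers of the proximal tubule moved the other way: every LBR-null library was below both WT libraries for 7 of 7, and their summed level was 34677 to 45201 normalized counts in the LBR-null mice against 119657 in the WT mouse. Of these 7, 6 had an unadjusted p under 0.05 by limma, all lower in LBR-null, and 4 were called by DESeq2. They ranged from Slc22a6, an organic anion transporter (log2 fold change -4.19), to Slc5a1, a sodium glucose transporter (-0.80), with a median of -1.59 beside 0.01 over all genes tested. In whole kidney, fewer cells of a type and less RNA per cell cannot be told apart.

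Aqp1 is also found in the thin limb, and the 7 markers of the thin limb and papilla did not move together. Bst1 was higher and called by DESeq2 (log2 fold change 1.33; adjusted p = 0.024, DESeq2). Krt5, a basal cell keratin, was lower (-1.99; adjusted p = 0.205, limma). Not all of these 7 markers are of the thin limb, and their median was -0.72. The 5 endothelial markers lay between -0.53 (Cdh5) and 0.04 (Pecam1), and their summed level was 16392 to 21191 in the LBR-null mice and 22624 in the WT mouse. The part of any of these cells in the Aqp1 level was not tested.

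Aqp2, the vasopressin-regulated channel of the apical membrane of principal cells, was the most abundant of the 10 per length. It lies on chromosome 15 (mm9, 99409487 to 99414976, forward strand), with Aqp6 downstream. It gave 28199 and 25586 normalized counts in the libraries of mouse 4001, 35005 in that of 4002, 17832 and 20479 in those of 4007, and 19900 and 19659 in those of the WT mouse. Mice 4001 and 4002 were above WT, and the libraries of mouse 4007 lay on both sides of the WT libraries. The log2 fold change was 0.41 ± 0.46 (SE; adjusted p = 0.686, limma), with an interval from -0.72 to 1.53.

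Aqp3 carries water and glycerol through the basolateral membrane of the same cells. It gave 8109 and 7617 normalized counts in the libraries of mouse 4001, 6129 in that of 4002, 3490 and 3649 in those of 4007, and 3714 and 3638 in those of the WT mouse. Again mice 4001 and 4002 were higher, and mouse 4007 was at the WT level, with ratios to WT of 2.14, 1.67 and 0.971. The log2 fold change was 0.60 ± 0.45 (SE; adjusted p = 0.524, limma), with an interval from -0.50 to 1.69.

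Slc14a2, the urea transporter of the inner medullary collecting duct and thin descending limb, was likewise higher in mice 4001 and 4002 and at the WT level in mouse 4007. It gave 9351 and 10725 normalized counts in the libraries of mouse 4001, 9872 in that of 4002, 4983 and 5235 in those of 4007, and 5105 and 5061 in those of the WT mouse. The ratios to WT were 1.97, 1.94 and 1.01 for mice 4001, 4002 and 4007. The log2 fold change was 0.65 ± 0.45 (SE; adjusted p = 0.487, limma), with an interval from -0.43 to 1.73. For Aqp2, Aqp3 and Slc14a2 alike, the genotype groups overlapped through mouse 4007.

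Aqp4, the other basolateral channel of principal cells, varied most. It gave 456 and 523 normalized counts in the libraries of mouse 4001, 3254 in that of 4002, 1256 and 1186 in those of 4007, and 2322 and 2423 in those of the WT mouse. Mouse 4001 was at 0.206 of the WT level, mouse 4007 at 0.515, and mouse 4002 above WT at 1.37. The highest LBR-null mouse exceeded the lowest 6.64-fold, and 1.39% of all genes tested had a ratio at least as large. Both libraries of a mouse differed by at most 1.15-fold. The log2 fold change was -0.93 ± 0.91 (SE; adjusted p = 0.635, limma), with an interval from -3.13 to 1.28.

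Avpr2, the V2 receptor that couples vasopressin to cAMP in principal cells, split the mice in the same way. It gave 404 and 400 normalized counts in the libraries of mouse 4001, 1078 in that of 4002, 451 and 422 in those of 4007, and 861 and 866 in those of the WT mouse. Mice 4001 and 4007 were at 0.466 and 0.506 of WT, and mouse 4002 was above WT (log2 fold change 0.32). The log2 fold change was -0.59 ± 0.56 (SE; adjusted p = 0.624, limma), with an interval from -1.95 to 0.77. The ratio of the highest to the lowest LBR-null mouse was 2.68, reached by 8.74% of all genes tested. Without mouse 4002, the log2 fold change of Aqp4 was -1.62 (adjusted p = 0.105, limma) and that of Avpr2 was -1.04 (adjusted p = 0.119, limma). Both were then at least 2-fold lower, as were 8.49% of all genes, and still did not pass the test. Without mouse 4001 the values moved toward 0 instead, to -0.25 for Aqp4 and -0.33 for Avpr2. Without mouse 4007 they were -0.91 and -0.39. On recovered reads the value of Aqp4 was -0.54 by edgeR and -0.53 by DESeq2.

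Mouse 4002 also stood apart from the other LBR-null mice in sex-linked RNA. Xist, the RNA of the inactive X chromosome, was at 5785 and 9940 normalized counts in mice 4001 and 4007, and at 65.3 in mouse 4002 and 35.5 in the WT mouse. Ddx3y, on the Y chromosome, was at 141 and 44.3 in mice 4001 and 4007, and at 1516 in mouse 4002 and 1284 in the WT mouse. The source of the Ddx3y counts in the mice high in Xist was not tested. Aqp4 and Avpr2 were below WT in the LBR-null mice high in Xist and above WT in the LBR-null mouse low in it. Aqp6 split the same way by less, at 0.826, 1.16 and 0.699 of WT in mice 4001, 4002 and 4007. Between the mice low in Xist, 4002 against WT, the log2 fold change was 0.46 for Aqp4 and 0.32 for Avpr2, with no test. It was 0.37 for Aqp1, 0.34 for Avpr1a, 0.82 for Aqp2, 0.74 for Aqp3 and 0.96 for Slc14a2, so these 5 genes were above WT there too. Aqp6 was at 0.22, Aqp7 at 0.24 and Aqp11 at -0.10. With 1 to 2 mice on each side, sex and the animal cannot be told apart, and the part of sex in these levels was not tested.

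Avpr2 lies on the X chromosome (mm9, 71137441 to 71140841, forward strand), where it overlaps L1cam and Arhgap4 on the opposite strand. Whether the counting used strand is not given in the sources used here, so reads of the 3 genes may be shared. L1cam and Arhgap4, looked up for this overlap after the values of Avpr2 were seen, both had their highest LBR-null value in mouse 4002. L1cam, a cell adhesion molecule of the collecting duct, was at 1022, 2332 and 1326 normalized counts in mice 4001, 4002 and 4007 and at 1962 in the WT mouse. Arhgap4 was at 84.7, 233 and 140 in the LBR-null mice and at 304 in the WT mouse. The part of the overlap in the Avpr2 level was not tested.

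**Figure D2:**
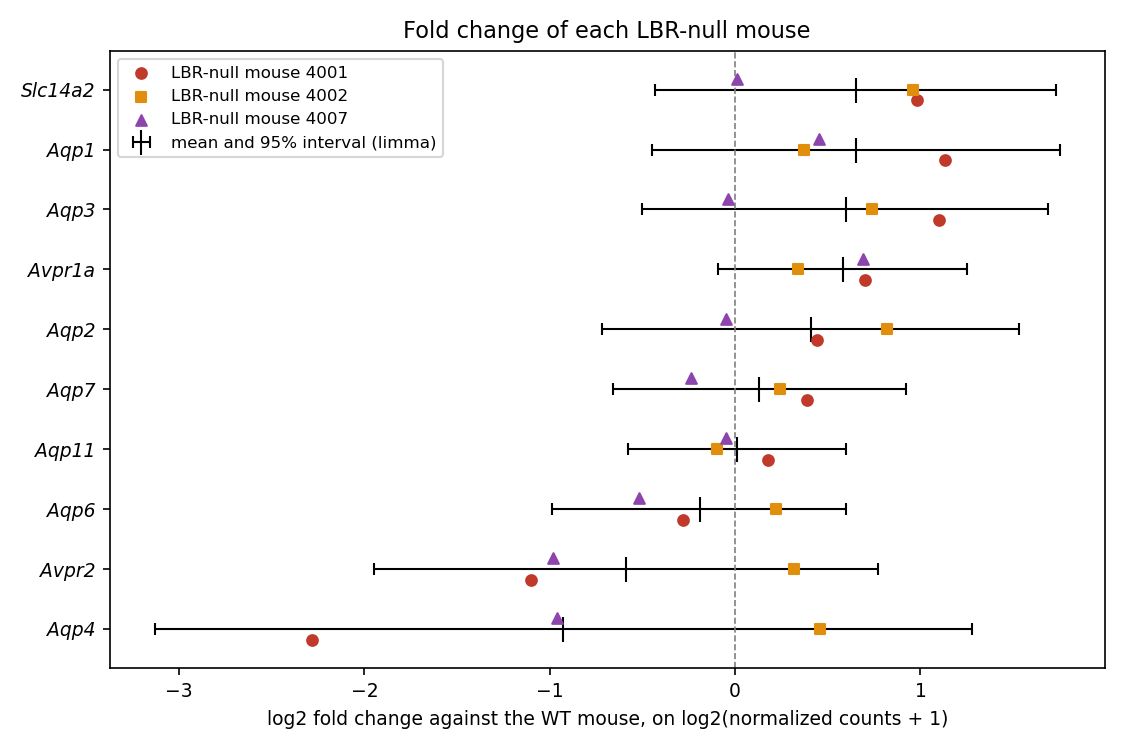
Log2 fold change of each gene against the WT mouse (x axis, on log2(normalized counts + 1)); coloured points are the 3 LBR-null mice, and black ticks with bars are the limma mean and 95% interval. Every interval holds 0, and the mice lie farthest apart for Aqp4 and Avpr2.

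Avpr1a, the V1a receptor, which signals through calcium and in kidney is found in vessels and intercalated cells, was the most even of the higher genes. It lies on chromosome 10 (mm9, 121885555 to 121890509, forward strand). It gave 514 and 600 normalized counts in the libraries of mouse 4001, 433 in that of 4002, 602 and 505 in those of 4007, and 379 and 305 in those of the WT mouse. All 5 LBR-null libraries were above both WT libraries. The ratios to WT were 1.63, 1.27 and 1.62 for mice 4001, 4002 and 4007, and the log2 fold change was 0.58 ± 0.28 (SE; adjusted p = 0.328, limma). Its unadjusted limma p of 0.0798 was the lowest of the 10, and the interval ran from 0.938-fold to 2.38-fold. The 2 WT libraries themselves differed by 1.24-fold, the widest gap between libraries of 1 mouse among the 10 genes.

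The remaining aquaporins stayed closer to WT. Aqp6, an anion-conducting channel in vesicles of acid-secreting intercalated cells, gave 1089 and 1238 normalized counts in the libraries of mouse 4001, 1639 in that of 4002, 948 and 1021 in those of 4007, and 1420 and 1398 in those of the WT mouse. Mice 4001 and 4007 were below WT and mouse 4002 above it (log2 fold change -0.19 ± 0.33, SE; adjusted p = 0.798, limma). Aqp7, a glycerol channel of the late proximal tubule and of adipocytes, gave 537 and 460 normalized counts in the libraries of mouse 4001, 449 in that of 4002, 318 and 325 in those of 4007, and 396 and 364 in those of the WT mouse. Here mouse 4007 was below WT and the other LBR-null mice above it (log2 fold change 0.13 ± 0.33, SE; adjusted p = 0.870, limma). The adipocyte markers Adipoq (-3.62), Plin1 (-3.45) and Cidec (-3.09) were lower in the LBR-null kidneys, each called by DESeq2. Aqp11, an intracellular channel of the proximal tubule, gave 1032 and 910 normalized counts in the libraries of mouse 4001, 803 in that of 4002, 856 and 800 in those of 4007, and 880 and 839 in those of the WT mouse. Aqp11 was the closest to WT of the 10 (log2 fold change 0.01 ± 0.25, SE; adjusted p = 0.989, limma), with an interval from 0.667-fold to 1.52-fold. Its LBR-null mice differed by 1.21-fold at most, and 80.1% of all genes tested spread at least as far.

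Counted by mouse, 7, 9 and 3 of the 10 genes were above WT in mice 4001, 4002 and 4007, where 50.7%, 51% and 50.6% of all genes were above WT. The median log2 fold change of the 10 was 0.42, 0.36 and -0.05 in the 3 mice, beside 0.01 over all genes in each. Aqp1, Avpr1a and Slc14a2 were above WT in all 3 mice, Slc14a2 in mouse 4007 by a ratio of 1.01 only. The 3 mice share the same WT mouse as reference, so these counts are not independent of each other.

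Principal cell markers did not move one way, and the ratios of Aqp2, Aqp3, Aqp4 and Avpr2 to them were compared within each mouse. None of the 6 principal cell markers had an unadjusted p under 0.05. They ran from -0.49 for Hsd11b2, the enzyme that keeps glucocorticoids from the mineralocorticoid receptor, to 0.51 for Scnn1b, a subunit of the epithelial sodium channel, with a median of -0.06. The geometric mean of Scnn1b, Scnn1g, Hsd11b2 and Fxyd4 came to 2149, 2967 and 2291 normalized counts in mice 4001, 4002 and 4007, and to 2477 in the WT mouse. Relative to this mean, Aqp2 stood at 12.5, 11.8 and 8.36 in the LBR-null mice and at 7.98 in the WT mouse. Aqp3 stood at 3.66, 2.07 and 1.56, against 1.48 in the WT mouse. In these ratios all 3 LBR-null mice were above WT for both genes, mouse 4007 by little. Aqp4 stood at 0.228, 1.1 and 0.533 against 0.958, and Avpr2 at 0.187, 0.363 and 0.19 against 0.348. For these genes mice 4001 and 4007 remained below WT and mouse 4002 above it. The direction for Aqp2 and Aqp3 depends on the markers taken. In mice 4001, 4002 and 4007 the log2 fold change was 0.65, 0.36 and 0.53 for Scnn1b, and -1.20, 0.08 and -0.35 for Hsd11b2. It was 0.44, 0.82 and -0.05 for Aqp2, and 1.10, 0.74 and -0.04 for Aqp3. Relative to Scnn1b alone, Aqp2 was thus below WT in mice 4001 and 4007, and Aqp3 in mouse 4007.

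**Figure D3:**
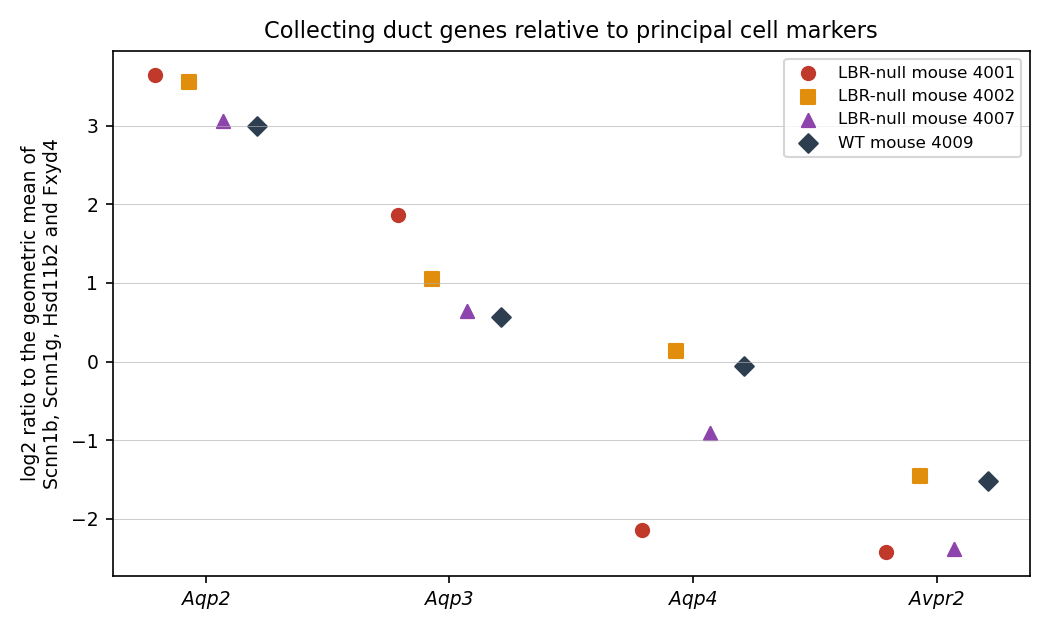
Log2 ratio of Aqp2, Aqp3, Aqp4 and Avpr2 to the geometric mean of 4 principal cell markers (y axis) in each mouse (points). The 3 LBR-null mice lay above the WT mouse for Aqp2 and Aqp3, and mice 4001 and 4007 below it for Aqp4 and Avpr2.

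Ratios between genes of principal cells, taken in whole kidney and chosen after the values were seen, describe the split. Aqp3 exceeded Aqp4, the other basolateral channel, 16.1-fold, 1.88-fold and 2.92-fold in mice 4001, 4002 and 4007, and 1.55-fold in the WT mouse. Aqp2 exceeded Avpr2, the vasopressin receptor, 66.9-fold, 32.5-fold and 43.9-fold in the LBR-null mice and 22.9-fold in the WT mouse. Aqp2 over Aqp3 was 3.42, 5.71 and 5.37 in the LBR-null mice and 5.38 in the WT mouse. Both of the first ratios were thus above WT in all 3 LBR-null mice, and the last in mouse 4002 alone. These ratios are of normalized counts, not of counts per length.

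Other aquaporins and the hormone genes were scarce. Aqp12 was listed at 0 in all 7 libraries, and Aqp5, Aqp8, Aqp9 and Mip were tested. Mip, the lens aquaporin, was at 8.04 to 19.5 normalized counts in the LBR-null libraries and at 7.09 and 3.62 in the WT libraries (log2 fold change 1.38; adjusted p = 0.233, limma). Aqp8 was the lowest of the 4 at -0.56, and their median was 0.61. Of the vasopressin and oxytocin genes, 3 of 5 were abundant enough to test. Oxtr, the oxytocin receptor, was at 74.8, 65.3 and 192 normalized counts in the LBR-null mice and at 15.4 in the WT mouse (log2 fold change 2.59). Oxt, the oxytocin gene, was at 25.8, 35.3 and 23.5 against 5.35 (log2 fold change 2.18). DESeq2 called both (adjusted p = 0.00445 for Oxtr and 0.0447 for Oxt), and limma neither (adjusted p = 0.122 and 0.114). Lnpep, the aminopeptidase that degrades oxytocin and vasopressin, was at -0.49.

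Downstream of the receptor, 9 of 12 cAMP signalling genes had a negative log2 fold change, beside 49.5% of all genes, with a median of -0.22. All LBR-null libraries were below WT for 5 of the 12 and above for 1, beside 25.7% and 25.5% of all genes. Prkar2b, a regulatory subunit of protein kinase A, was at 71.6, 233 and 129 normalized counts in mice 4001, 4002 and 4007 and at 435 in the WT mouse (log2 fold change -1.74; adjusted p = 0.208, limma). Prkaca, its catalytic subunit, was at 969, 1223 and 963 against 1618 (-0.63; adjusted p = 0.259, limma). Both had an unadjusted limma p under 0.05, as did 8.05% of all genes in the lower direction, and 0 of the 12 passed after adjustment by limma, edgeR or DESeq2. The largest log2 fold change was that of Akap7, an anchoring protein found on AQP2 vesicles, at 0.54. Of the 12 genes for AQP2 vesicle trafficking, 0 had an unadjusted p under 0.05, and they ran from -0.55 (Sipa1, a Rap1 GTPase activator that binds AQP2) to 0.64 (Stx3, an apical syntaxin), with a median of -0.06.

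Among 10 transcription factors of the collecting duct and of Aqp2, 1 had an unadjusted p under 0.05. Creb3l1, a membrane-bound factor related to CREB, was at 154, 345 and 156 normalized counts in the LBR-null mice and at 735 in the WT mouse (log2 fold change -1.85; adjusted p = 0.133, limma), and DESeq2 called it (adjusted p = 0.0228). The largest value was 0.25, for Tfcp2l1, a factor that sets principal and intercalated cell fate. The median of the 10 was -0.25.

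Osmolyte genes, which the medulla uses against high salt and urea, moved in both directions. Slc6a6, the taurine transporter, was at 10011, 11557 and 15084 normalized counts in the LBR-null mice and at 5118 in the WT mouse (log2 fold change 1.23; DESeq2 adjusted p = 0.0116). Hspa4l, an osmotic stress chaperone, was at 420, 530 and 429 against 1109 (-1.28; DESeq2 adjusted p = 0.00395). Slc6a12, the betaine transporter, had the lowest value, -1.46, and mouse 4002 (461) was close to the WT mouse (517) while mice 4001 (91.8) and 4007 (156) were not. Akr1b3, the aldose reductase, was listed at 0 in all 7 libraries. Since the counting program and its annotation are not given, this listing is not read as absence of the RNA. Of 8 genes tested, 4 were above 0 and 4 below.

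Of 12 signals that oppose or modulate vasopressin, an endothelin gene and its receptor had the largest values. Edn1, whose product lowers water and sodium reabsorption in the collecting duct, was at 563, 327 and 555 normalized counts in the LBR-null mice and at 131 in the WT mouse (log2 fold change 1.83; DESeq2 adjusted p = 0.00108). Ednrb, the endothelin B receptor, was at 4665, 2941 and 3938 against 1562 (1.27; DESeq2 adjusted p = 0.0133). By limma neither passed (adjusted p = 0.107 and 0.12). Ptger1, a prostaglandin E receptor, was the lowest at -0.92, and the median was 0.16. In urea handling, Ass1, an enzyme of arginine synthesis in the proximal tubule, was at 14117, 15200 and 19487 normalized counts against 36808 in the WT mouse (-1.19; DESeq2 adjusted p = 0.0101). Arg1 was the highest at 1.10. Slc14a1, the urea transporter of the descending vasa recta, was the lowest at -1.35, with 110, 865 and 329 in the LBR-null mice and 807 in the WT mouse.

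**Figure D4:**
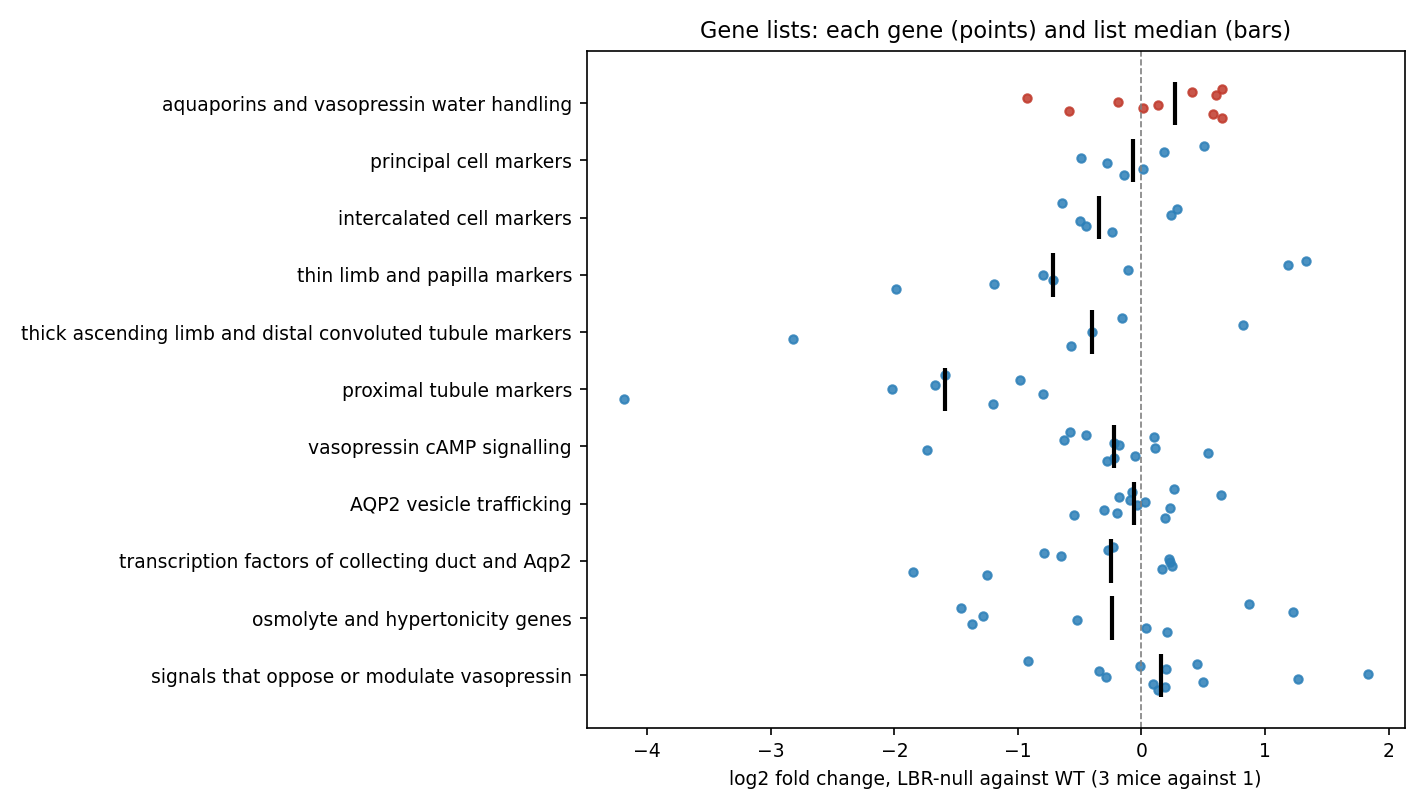
Log2 fold change of LBR-null against WT kidneys (x axis) for each tested gene (points) and the median (bars) of the 10 genes described and of 10 lists of related or marker genes. The 10 genes lie between -0.93 and 0.65, and the proximal tubule markers all lie below 0.

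Markers of other cells were counted for the same comparison. The 6 intercalated cell markers lay between -0.64 (Foxi1, their defining factor) and 0.29 (Atp6v1g3, a proton pump subunit), with none under an unadjusted p of 0.05, and their summed level was 13549 to 14760 normalized counts in the LBR-null mice and 15362 in the WT mouse. Of 5 markers of the thick ascending limb and distal convoluted tubule, Pvalb, a calcium-binding protein of the early distal convoluted tubule, was lower (-2.82; DESeq2 adjusted p = 0.000611), and Slc12a1, the sodium potassium chloride transporter, had the highest value (0.82). Of the 5 glomerulus markers, Wt1 had the highest value (0.33) and none had an unadjusted p under 0.05, and their summed level came to 8306, 15286 and 16692 in mice 4001, 4002 and 4007 and to 19926 in the WT mouse. Ckm, a muscle enzyme named after its values were seen, was at 579 normalized counts in mouse 4001 against 10.6 to 19.2 elsewhere. Myh4, a muscle myosin, was at 9.16, 10.3 and 18 normalized counts in mice 4001, 4002 and 4007 and near 0 in the WT mouse (0.394), and no tool called it (adjusted p = 0.103, limma). Among 6 blood and leukocyte markers, S100a8 and S100a9 were higher (160 to 910 and 136 to 891 normalized counts against 50.1 and 8.23) and Alas2, an enzyme of heme synthesis in red cell precursors, was lower (-1.83), each called by DESeq2. Lbr itself was at 322, 340 and 471 normalized counts in the LBR-null mice and at 398 in the WT mouse, which does not test the genotype labels.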

How the data were processed

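Polyadenylated RNA of mouse kidney was sequenced as 150 bp paired-end reads in 7 libraries of 4 mice. Alignment to mm9 was done by the authors with STAR 2.6.0. The deposited signal of a gene is its read count after division by the library's size factor from DESeq2 1.25.1 (normalized counts). The counting program, its annotation and its use of strand are not given in the sources used here. All deposited values (100%) were whole multiples of their library's lowest value within 0.01 read, so reads were recovered by division. Libraries were averaged within a mouse. Mouse means were fitted with limma 3.58.1 in R 4.3.3 (moderated variances with a mean trend) on log2(normalized counts + 1), a scale that understates changes of low genes. The 17283 genes whose mean reached 5 were tested, and p-values were adjusted by Benjamini-Hochberg. The fit has 2 residual degrees of freedom and assumes that the lone WT mouse varies as the LBR-null mice do. Alternatives here were DESeq2 1.42.0 and the quasi-likelihood test of edgeR 4.0.16 on recovered reads summed per mouse, beside other pseudocounts, minimums, scalings, a correlation between libraries of a mouse and left-out libraries or mice. P-values measure the spread between these mice only. Positions and exon lengths are of GENCODE models for mm9 (NCBIM37), and start-site windows of RefSeq. The 10 genes and all lists were chosen with earlier results of these data known. From each list the highest and lowest log2 fold change, genes with an unadjusted limma p under 0.05, genes listed at 0 and the genes of the principal cell ratio were named. Xist, Ddx3y and Lbr were looked up as checks of the samples, and other genes are marked where they were chosen after their values were seen. Genes that this rule names but that are withheld are not reported here.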

Additional observations from a re-analysis of the deposited data

Results flagged for a closer look

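Among 60 groups of the 5 LBR-null libraries, 9 held a library that stood apart from the other 4 (a gap of more than 0.71 of the group's range) in normalized counts. The limit flags about 1 in 20 groups of independent samples by chance. These libraries are not independent, since mice 4001 and 4007 gave a pair each, so the single library of mouse 4002 is the one most readily set apart by the design. It was the library concerned in 8 of the 9 groups, and no weight is placed on that number. In that library Aqp4 was at 3254 normalized counts (456 to 1256 in the other LBR-null libraries, 2322 and 2423 in the WT libraries). Avpr2 was at 1078 (400 to 451, WT 861 and 866), and Fxyd4, an ion transport regulator of principal cells, at 4548 (1476 to 2108, WT 3037 and 3154). For these 3 genes mouse 4002 lay above both groups. Prkaca was at 1223 (930 to 996, WT 1587 and 1650), Creb3l1 at 345 (141 to 171, WT 764 and 706), Slc6a12 at 461 (70 to 165, WT 514 and 519) and Krt5 at 148 (37.3 to 62.9, WT 282 and 269). Edn1 was at 327 (531 to 596, WT 124 and 138). For these 5 genes mouse 4002 lay between the other LBR-null libraries and the WT libraries. Plin1, an adipocyte lipid droplet protein, was at 17.7 in library 2 of mouse 4001 (4.3 to 6.89, WT 90.6 and 72.4).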

How the results depend on the processing

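No paired analysis was possible because the replicate numbers in the sample titles tell apart libraries of the same mouse and link no LBR-null mouse to the WT mouse, which is the only one of its group. Across 18 alternatives with a test, 172 of 180 log2 fold changes kept their sign and none of the 10 genes passed the test (lowest adjusted p 0.105, against 0.328 as reported). All of these alternatives except edgeR and DESeq2 were limma fits, whose share of all genes passing was not counted. The absence of calls among the 10 therefore says little. The reversals were of values near 0. Aqp11 was at -0.02 with TMM scaling, at -0.01 with edgeR and at -0.01 with DESeq2, and between -0.08 and 0.06 when mice or libraries were left out, with -0.08 without mouse 4001. Aqp7 was between -0.000 and 0.32 when mice or libraries were left out, the lowest value being without mouse 4001. Leaving out mice also moved Aqp1 (0.41 without mouse 4001), Aqp2 (0.20 without mouse 4002, 0.63 without mouse 4007), Aqp3 (0.35 without mouse 4001, 0.92 without mouse 4007) and Aqp6 (-0.40 without mouse 4002, -0.03 without mouse 4007) by over 1.5 times, with the same sign. The number of genes at least 2-fold lower was 0 to 2 when mice or libraries were left out, with 2 without mouse 4002. Genes with every LBR-null library below both WT libraries numbered 0 to 3, with 3 without mouse 4002 (29.6% of all genes), and those above numbered 2 to 6, with 6 without mouse 4007 (27.9% of all genes) and 4 without its first library (26.1% of all genes). With mouse 4002 alone, 1 gene was below (45.5% of all genes) and 9 were above (45.4% of all genes), with no test. Against the deposited values, TMM scaling moved the median of all genes by -0.03. With 1 WT mouse and 3 LBR-null mice, intervals of the fold changes reached from 0.114-fold to 2.43-fold (Aqp4). By limma no gene of the 17283 tested passed, not even Slc22a6 (log2 fold change -4.19). Differences of 2-fold were thus not detectable by limma for any of the 10 genes.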
